A study of Mus musculus with 4 samples.

Results

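The immediate early AP-1 and Egr genes are a group of 10 transcription factor and regulator genes, most of which cells switch on soon after a signal. They were chosen by name, and all 10 (Fos, Fosb, Fosl2, Jun, Junb, Jund, Atf3, Egr1, Ier2 and Ier3) were found among the 27408 gene symbols and unnamed IDs in the tables, each as 1 transcript row. The libraries were poly(A) RNA-seq libraries of wild-type CJ9 cells, a mouse embryonic stem cell line of strain 129S4/SvJae, titled as carrying Cas9 alone. LIF, the cytokine that holds these cells in self-renewal, had been withdrawn from all of them. By title, 2 libraries (replicates 1 and 2) were taken at day 6 and 2 at day 4, in a series on the role of the homeobox gene Evx1 and its antisense transcript in differentiation. The text on culture in the labels gives 4 and 6 days without LIF for day 6 replicates 1 and 2, and 2 and 6 days for day 4 replicates 1 and 2, so it departs in 3 of the 4 from the titles, whose days the extraction text repeats. All 4 are labelled WT and come from 1 line, and the labels name no separate cultures. Cells with the Evx1 locus deleted are not analysed here. A p-value here therefore measures how far these libraries spread, and that spread may be technical.

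AP-1 is a dimer of leucine zipper proteins. A Jun protein pairs with a Fos protein, with another Jun protein or with an ATF protein, and the pair binds a short palindrome in promoters and enhancers. Growth factors that act through Ras and the ERK kinases activate SRF and its partners of the ternary complex factor group, and these, with CREB, start transcription of Fos, Egr1 and other immediate early genes without new protein synthesis. The mRNAs of genes induced in this way are short-lived, so their levels follow recent signalling. In embryonic stem cells FGF4 is a main source of ERK activity and promotes the exit from self-renewal.

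RefSeq promoter sequence (GRCm38.p6, the build that mm10 stands for) was at hand for 8 of the 10 genes. Stretches of 135 bases that end just before the RefSeq transcript start are shown for 6 of them, because they hold matches to elements of CREB and ATF, Egr and Jun proteins. Positions are counted from that start. In Fos it lies at 85473890, whereas the transcript row measured here starts at 85473901. Capitals mark TGACG (the core of the CREB and ATF element) in Fos, Fosb, Junb and Atf3, TATAAA in Fos, GCGNGGGCG (the Egr element) in Fosb and Fosl2, and TGACATCA (the element bound by Jun and ATF2) in Jun. Strands are those of the gene, and in Atf3 the core reads on the opposite strand.
Fos, chr12:85473755-85473889, plus strand: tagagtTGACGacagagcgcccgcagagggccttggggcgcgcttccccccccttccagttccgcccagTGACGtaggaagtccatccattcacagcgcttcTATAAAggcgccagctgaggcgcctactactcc
Fosb, chr7:19310046-19310180, minus strand: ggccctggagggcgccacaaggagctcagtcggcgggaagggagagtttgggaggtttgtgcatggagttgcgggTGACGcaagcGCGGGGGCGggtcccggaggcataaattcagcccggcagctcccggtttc
Fosl2, chr5:32136337-32136471, plus strand: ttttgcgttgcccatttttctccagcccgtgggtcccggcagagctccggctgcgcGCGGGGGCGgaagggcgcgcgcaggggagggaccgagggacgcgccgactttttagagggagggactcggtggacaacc
Jun, chr4:95052223-95052357, minus strand: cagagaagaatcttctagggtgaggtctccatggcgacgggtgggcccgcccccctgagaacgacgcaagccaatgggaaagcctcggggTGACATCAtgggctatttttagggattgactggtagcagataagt
Junb, chr8:84978749-84978883, minus strand: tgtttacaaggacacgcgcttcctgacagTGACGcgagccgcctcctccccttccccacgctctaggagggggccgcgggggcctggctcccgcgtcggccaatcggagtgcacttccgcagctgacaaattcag
Atf3, chr1:191183334-191183468, minus strand: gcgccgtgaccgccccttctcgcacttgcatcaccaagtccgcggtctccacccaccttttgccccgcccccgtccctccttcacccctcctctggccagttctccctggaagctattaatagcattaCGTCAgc

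In the 250 bases before the start, searched on both strands, TGACG was found in 4 of the 8 genes and in 17.8% of all 32851 promoter windows. Fos holds it at 66 to 62 bases before the start and again at 129 to 125, Fosb at 60 to 56 and Junb at 106 to 102. In Atf3 it lies at 7 to 3 bases before the start. TGACATCA, found in Jun at 45 to 38 bases before the start, occurs in 2.93% of windows, and GCGNGGGCG, found in Fosb and Fosl2, in 4.70%. TATAAA was found in 1 of the 8, Fos, and in 12.4% of windows. The full CREB palindrome TGACGTCA, which contains TGACG, the AP-1 palindrome TGANTCA, the CArG box of SRF and the ETS core CCGGAA were in none of the 8 windows. TGACGTCA occurs in 1.55% of all windows, TGANTCA in 6.75%, the CArG box in 1.47% and CCGGAA in 12.0%. No match says only that these letters are not in this window.

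The values are FPKM, which scales the fragments of a transcript by its length and by the size of the library, so levels of different genes can be set side by side. The widths of the deposited FPKM intervals correspond to 5300000 to 5960000 mapped fragments in the day 6 libraries and 3230000 to 3330000 in the day 4 libraries, so low genes are measured less precisely at day 4. Day 4 replicate 2 stands apart: 9461 genes reached 1 FPKM in it, against 11223 in day 4 replicate 1 and 11720 to 11854 at day 6, and its 10 most abundant rows hold 19.8% of all FPKM, against 10.4 to 11.8% in the other 3 libraries. Its difference from day 4 replicate 1 runs with the GC content of the transcript. On the log2(FPKM + 1) scale the median over genes was -1.50 at 40 to 45% GC, -0.11 at 50 to 55% and 2.09 at 65 to 70%, whereas the day 6 replicates had medians between -0.11 and -0.01 in all of these GC bins. Results are therefore also given after a correction for GC content. It also removes shifts shared by all genes of a library, so it moves the differences between the days as well. Of the markers of the labelled cell type, Pou5f1 (Oct4, a core pluripotency factor) was at 54.9 and 42.0 FPKM at day 6, against 368 and 376 FPKM at day 4. The streak marker T was likewise at 10.4 and 10.97 FPKM at day 6, against 131 and 252 FPKM at day 4. Evx1 itself was at 4.88 and 4.91 FPKM at day 6, against 12.1 and 133 FPKM at day 4.

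Of the 10 genes, Fos, Ier3 and the scarce Fosb measured higher in each day 6 library than in either day 4 library, and Atf3 measured lower. Junb, Jund, Jun and Ier2 differed more between the 2 day 4 libraries than between the days, and Egr1 and Fosl2 overlapped as well. Fosb, with a mean below 1 FPKM, was not tested, so 9 genes entered the test. None of the 9 passed (limma on log2(FPKM + 1), Benjamini-Hochberg adjusted over 11736 genes, adjusted p from 0.400 to 0.995), 0 reached an unadjusted p under 0.05, and 0 of all 11736 genes passed (0%), although 1806 (15.4%) had an unadjusted p under 0.05. Among the 9, 2 were higher without overlap, where 41.5% of all genes tested were, and 1 was lower, where 11.5% were. Their median log2 difference was -0.01, against 0.51 for all genes tested. After the GC correction 1 of the 9 (Jund) was higher without overlap and 4 (Fosl2, Junb, Atf3 and Ier2) lower, where 28.1 and 27.3% of all genes were, and their median was -0.60, against 0.02 for all genes. With day 4 replicate 2 left out 6 were higher (Fos, Ier3, Jun, Junb, Jund and Ier2), where 59.9% of all genes were, and 1 lower (Atf3), where 32.0% were. With day 4 replicate 1 left out 2 were higher (Fos and Ier3), where 65.0% of all genes were, and 5 lower (Atf3, Fosl2, Jun, Junb and Ier2), where 28.8% were. Fos, Ier3 and Atf3 kept their side in both, and Jun, Junb and Ier2 changed sides. Both follow from the order of the 4 values alone and are no further support. In bulk samples fewer cells of a type and less RNA per cell cannot be told apart. An exact two-sided permutation test of 2 libraries against 2 cannot give a p under 0.333, so it cannot call any single gene.

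**Figure D1:**
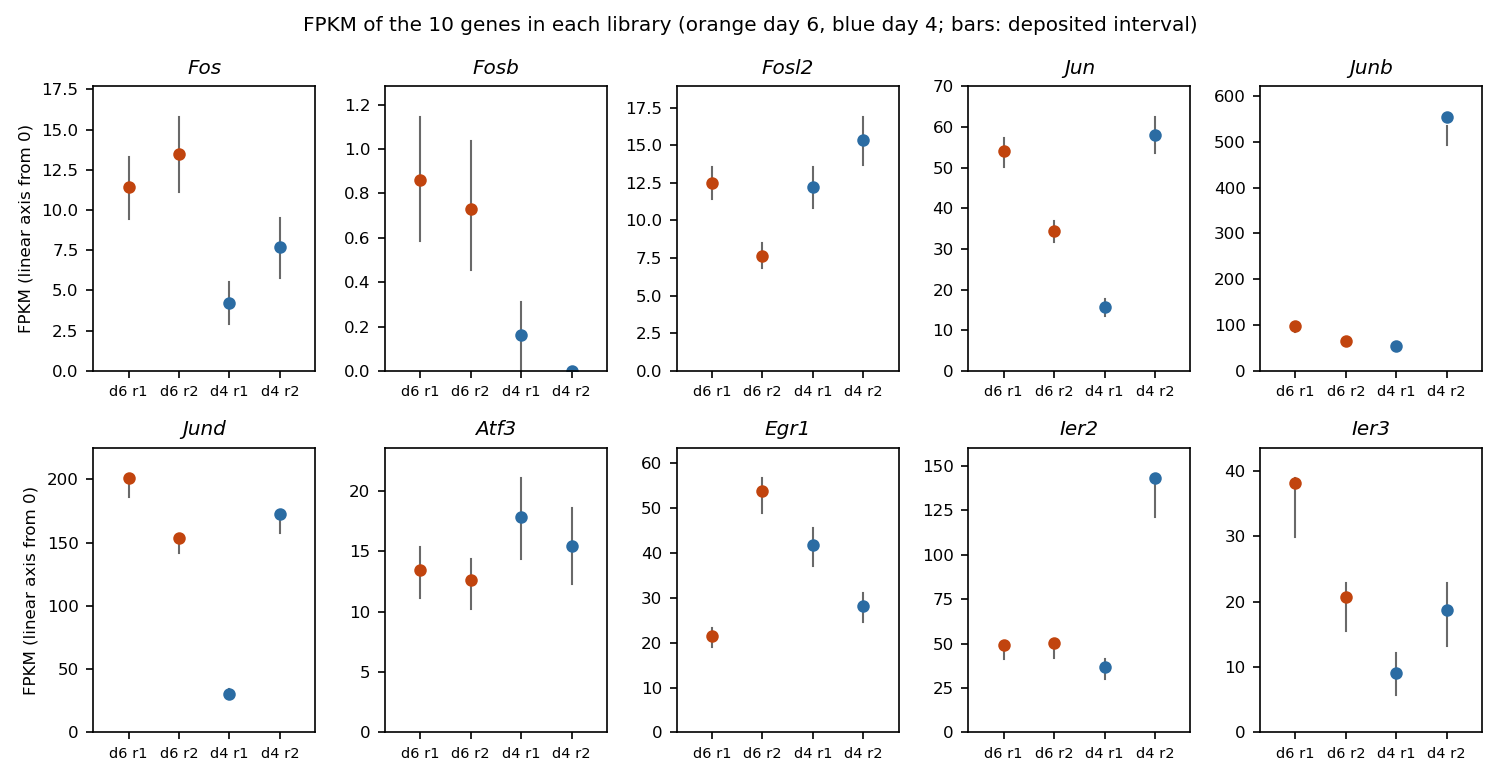
FPKM of each of the 10 genes in each library (d6 r1 is day 6 replicate 1, and so on), on linear axes from 0, 1 point per library, day 6 in orange and day 4 in blue, with the deposited FPKM interval as a bar. Fos, Fosb and Ier3 are higher in both day 6 libraries, Atf3 is lower in both, and Junb in day 4 replicate 2, at 555 FPKM, is 10.3 times its level in day 4 replicate 1.

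Fos, whose protein dimerizes with Jun proteins and does not form a stable dimer with itself, lies on the plus strand of mm10 chromosome 12, at 85473901 to 85477270. It measured 11.4 and 13.5 FPKM in the day 6 libraries, against 4.24 and 7.68 FPKM in the day 4 libraries. The deposited intervals were 9.42 to 13.3 and 11.1 to 15.8 FPKM at day 6, against 2.90 to 5.51 and 5.75 to 9.53 FPKM at day 4, and across the days only those of day 6 replicate 1 and day 4 replicate 2 overlap. The mean was 12.5 ± 1.45 FPKM at day 6, against 5.96 ± 2.43 FPKM at day 4 (± SD over 2 libraries). The log2 difference was 0.99 with a standard error of 0.48 (95% interval -0.30 to 2.29, limma, adjusted p = 0.400). After the GC correction it was 0.34, and the libraries of the days overlapped. It was 0.36 after median centring, which makes no use of GC content. Without day 4 replicate 1 it was 0.63 (limma, adjusted p = 0.0464), and 1.36 when day 4 replicate 2 was left out instead (adjusted p = 0.00658). Such a fit takes its spread from the day 6 pair alone, on the assumption that day 4 varies no more. Under it 5844 of all genes passed as higher and 1990 as lower without day 4 replicate 1, and 4238 and 1827 without day 4 replicate 2. Fos stood at the 54.0 and 59.6 percentile of tested genes at day 6 and at the 36.3 and 59.2 percentile at day 4, so by rank day 4 replicate 2 lay between the day 6 libraries.

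Fosb, which encodes a close relative of Fos, was near the lower limit of detection. It was listed at 0.862 and 0.731 FPKM at day 6, and at 0.162 FPKM and 0 in day 4 replicates 1 and 2. The interval widths correspond to about 38 and 27 fragments in the day 6 libraries, and in day 4 replicate 1 the interval includes 0 (0 to 0.311 FPKM). Both day 6 intervals, 0.587 to 1.15 and 0.457 to 1.04 FPKM, lie above it. With no filter on low values the log2 difference was 0.74 with a standard error of 0.14 (limma, adjusted p = 0.238).

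Fosl2 (Fra-2), a Fos family member that lacks the strong activation domain of Fos, measured 12.5 and 7.66 FPKM at day 6, against 12.2 and 15.3 FPKM at day 4. The 2 days overlap. The difference was -0.44 log2 units with a standard error of 0.48 (95% interval -1.72 to 0.84, limma, adjusted p = 0.672). The GC-corrected difference was -1.05, with both day 6 libraries below both day 4 libraries. Median centring gave -1.07.

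Among the 3 Fos genes of the group, Fos, Fosb and Fosl2, the shares of Fos and Fosl2 did not overlap between the days. Fos made up 46.1 and 61.6% of their summed FPKM at day 6, against 25.5 and 33.4% at day 4. Fosl2 made up 50.4 and 35.0% at day 6, against 73.5 and 66.6% at day 4, and Fosb at most 3.5%. These sums leave out Fosl1, the remaining Fos family gene, which is not of the group. With Fosl1 added, Fos made up 46.0 and 61.6% at day 6, against 23.7 and 25.5% at day 4. The share of Fosl2 was then 50.3 and 35.0% at day 6, against 68.3 and 51.0% at day 4, so its days came within 1 percentage point of each other. A scaling of whole libraries leaves these shares as they are. With the GC correction the log2 value of Fos minus that of Fosl2 was -0.14 and 0.71 at day 6 and -1.43 and -0.78 at day 4, again without overlap. The 2 transcripts are of similar GC content, 51.9% for Fos and 53.1% for Fosl2. The sums of the 3 genes overlapped, at 24.8 and 21.9 FPKM at day 6, against 16.6 and 23.0 FPKM at day 4. With Fosl1 the sums were 24.9 and 21.9 FPKM at day 6, against 17.9 and 30.05 FPKM at day 4, again with overlap.

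The Jun family was the more abundant side of AP-1, with a summed level of 353 and 254 FPKM at day 6, against 100.2 and 786 FPKM at day 4. It exceeded the sum of Fos, Fosb and Fosl2 14.2- and 11.6-fold at day 6, and 6.03- and 34.2-fold in day 4 replicates 1 and 2. With Fosl1 in that sum the excess was 14.2- and 11.6-fold at day 6, and 5.61- and 26.2-fold in day 4 replicates 1 and 2. Both day 6 libraries lie between the day 4 libraries. The high sum in day 4 replicate 2 rests mainly on Junb. The transcripts of Jun, Junb and Jund have 55.5, 62.6 and 67.1% GC, against 51.9, 56.0 and 53.1% for Fos, Fosb and Fosl2. These sums and folds were not corrected for GC content, with which the difference between the day 4 libraries runs.

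Junb, a Jun protein that activates transcription less strongly than Jun and can antagonize it, is an intronless gene on the minus strand of mm10 chromosome 8, at 84976909 to 84978748. It measured 97.7 and 65.3 FPKM at day 6, against 53.8 and 555 FPKM in day 4 replicates 1 and 2. Day 4 replicate 2 is high, and the day 6 libraries lie near day 4 replicate 1. The gap between the day 4 libraries was 10.3-fold, far beyond counting error, as the deposited intervals are 45.5 to 57.6 and 494 to 533 FPKM. For 3 of the 40 values of the group, Junb in day 6 replicate 1 and day 4 replicate 2 and Jund in day 6 replicate 1, the deposited FPKM lies above its own interval. The log2 difference between the days was -1.11 with a standard error of 1.23 (95% interval -4.41 to 2.19, limma, adjusted p = 0.678). Without day 4 replicate 1 it was -2.78 (adjusted p = 0.00119), and 0.56 when day 4 replicate 2 was left out instead (adjusted p = 0.142), so the direction rests on 1 library. Its transcript has 62.6% GC, above 98.2% of tested genes with a GC value. After the GC correction the log2 gap between the day 4 libraries was 1.64 in place of 3.34, and the difference between the days was -1.13, with both day 6 libraries below both day 4 libraries.

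Jund, the Jun family member with the steadiest transcription across growth states in cultured cells, measured 201 and 154 FPKM at day 6, against 30.8 and 173 FPKM at day 4. Here day 4 replicate 1 is the low library, and day 4 replicate 2 lies between the day 6 libraries. On the log2 scale the difference was 1.25 with a standard error of 0.95 (95% interval -1.29 to 3.80, limma, adjusted p = 0.545). With day 4 replicate 2 left out it was 2.48 (adjusted p = 0.00247). Leaving out day 4 replicate 1 gave 0.03 (adjusted p = 0.926). With 67.1% GC it lies above 99.8% of tested genes. With the GC correction the day 4 libraries differed by 0.16 log2 units in place of 2.45. The corrected difference between the days was 1.46, without overlap (adjusted p = 0.190).

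Jun, the founding Jun protein, which activates its own gene through AP-1 and ATF elements, measured 54.0 and 34.3 FPKM at day 6, against 15.6 and 58.1 FPKM at day 4. Day 4 replicates 1 and 2 bracket the day 6 libraries. Between the days the log2 difference was 0.49 with a standard error of 0.78 (95% interval -1.60 to 2.58, limma, adjusted p = 0.775). It was -0.14 when each library was centred on its median, and 0.02 after the GC correction. Leaving out day 4 replicate 1 gave -0.42 (adjusted p = 0.263), and leaving out day 4 replicate 2 gave 1.41 (adjusted p = 0.0146).

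Within the Jun family Jund led at day 6 and Junb at day 4. Jund made up 57.0 and 60.7% of the family's FPKM at day 6, against 30.7 and 22.0% at day 4. Junb made up 27.7 and 25.7% at day 6, against 53.7 and 70.6% at day 4. Jund was 2.06 and 2.36 times Junb at day 6, against 0.572 and 0.311 times at day 4. This order held in both libraries of each day, though the levels of the 2 genes did not separate the days. GC-corrected, the log2 value of Jund minus that of Junb was 1.13 and 1.33 at day 6 and -0.61 and -2.09 at day 4. The share of Jun was 15.3 and 13.5% at day 6 and 15.6 and 7.4% at day 4.

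**Figure D2:**
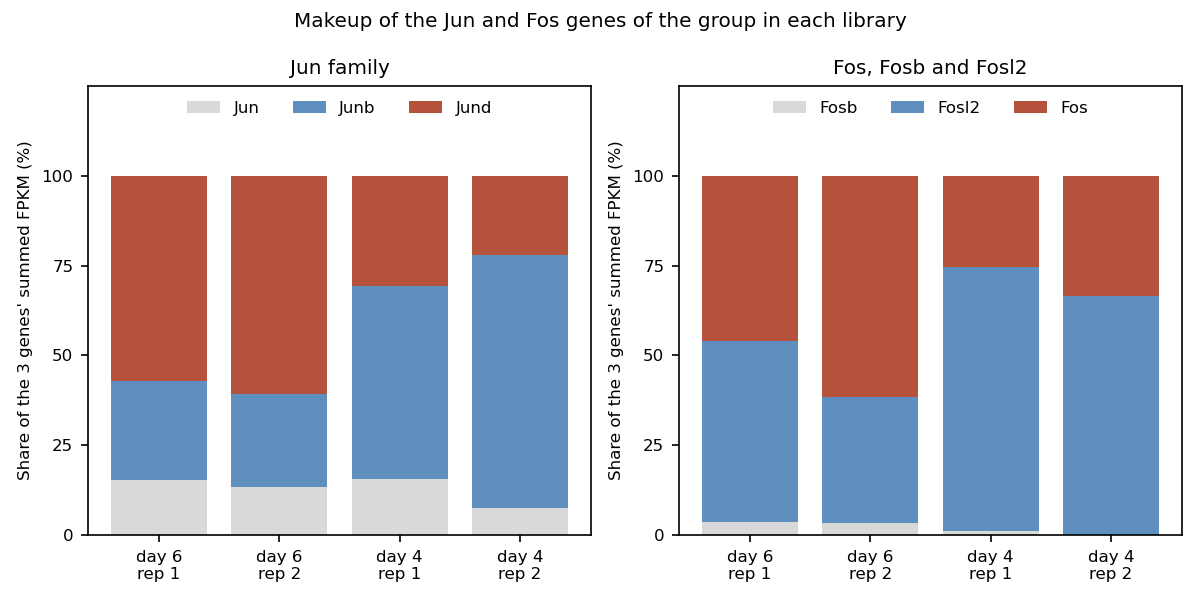
Share of each gene in the summed FPKM of the Jun family (left) and of Fos, Fosb and Fosl2, without Fosl1 (right), in percent, 1 bar per library with day 6 to the left of day 4. Jund holds 57.0 and 60.7% of the Jun family at day 6 against 30.7 and 22.0% at day 4, and Fos holds 46.1 and 61.6% of the sum of the 3 Fos genes at day 6 against 25.5 and 33.4% at day 4.

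Atf3, a stress-induced leucine zipper protein that represses transcription as a homodimer, was the steadiest of the 9 tested genes, with a 1.42-fold span over the 4 libraries. It measured 13.5 and 12.6 FPKM at day 6, against 17.8 and 15.5 FPKM at day 4. Both day 6 libraries are lower, but each deposited interval of day 6 overlaps both of day 4: 11.2 to 15.3 and 10.2 to 14.4 FPKM at day 6, and 14.4 to 21.1 and 12.3 to 18.6 FPKM at day 4. The log2 difference was -0.33 with a standard error of 0.42 (95% interval -1.45 to 0.80, limma, adjusted p = 0.721). It was -0.97 after the GC correction and -0.96 after median centring. Its percentile among tested genes was 58.6 and 57.7 at day 6 and 72.2 and 72.4 at day 4.

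Egr1, a zinc finger factor of GC-rich elements and a standard readout of ERK activity, lies on the plus strand of mm10 chromosome 18, at 34861207 to 34864956. It measured 21.4 and 53.8 FPKM in day 6 replicates 1 and 2, against 41.9 and 28.1 FPKM in day 4 replicates 1 and 2. The days overlap, and the lowest and the highest library are both from day 6. The deposited intervals of the 2 day 6 libraries, 19.0 to 23.3 and 48.8 to 56.7 FPKM, are far apart. Egr1 was 2.51 times as high in day 6 replicate 2 as in day 6 replicate 1, a log2 gap of 1.29, where 0.750% of tested genes were more than 1 log2 unit higher in replicate 2. It was the 1 gene of the 9 past that size at day 6, and 0 of the 9 were that much lower, where 1.06% of all genes were. Between the days the log2 difference was -0.01 with a standard error of 0.63 (95% interval -1.72 to 1.69, limma, adjusted p = 0.995), an interval that spans changes of either sign. The difference was 0.63 without day 6 replicate 1 and 0.27 without day 4 replicate 1.

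Ier2, an immediate early gene induced by growth factors, measured 49.2 and 50.1 FPKM at day 6, against 37.1 and 143 FPKM at day 4. The day 6 libraries are alike and lie between the day 4 libraries. The log2 difference was -0.55 with a standard error of 0.78 (limma, adjusted p = 0.749). Leaving out day 4 replicate 1 gave -1.51 (adjusted p = 0.00162), and leaving out day 4 replicate 2 gave 0.41 (adjusted p = 0.0940). At 60.9% GC, its gap between the day 4 libraries was 1.92 log2 units before and 0.46 after the GC correction.

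Ier3 (IEX-1), a stress-induced regulator of cell survival, measured 38.2 and 20.7 FPKM at day 6, against 9.01 and 18.8 FPKM at day 4. The days do not overlap, but day 6 replicate 2 and day 4 replicate 2 lie close, with intervals of 15.5 to 22.9 and 13.2 to 22.8 FPKM. The mean was 29.5 ± 12.3 FPKM at day 6, against 13.9 ± 6.91 FPKM at day 4 (± SD over 2 libraries). The log2 difference was 1.05 with a standard error of 0.60 (95% interval -0.57 to 2.67, limma, adjusted p = 0.449). It was 0.51 after the GC correction, with overlap, and 0.42 after median centring. Leaving out day 4 replicate 1 gave 0.56 (adjusted p = 0.234), and leaving out day 4 replicate 2 gave 1.54 (adjusted p = 0.0208). Ier3 stood at 0.776 and 0.414 times the level of Ier2 at day 6 and at 0.243 and 0.131 times at day 4.

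**Figure D3:**
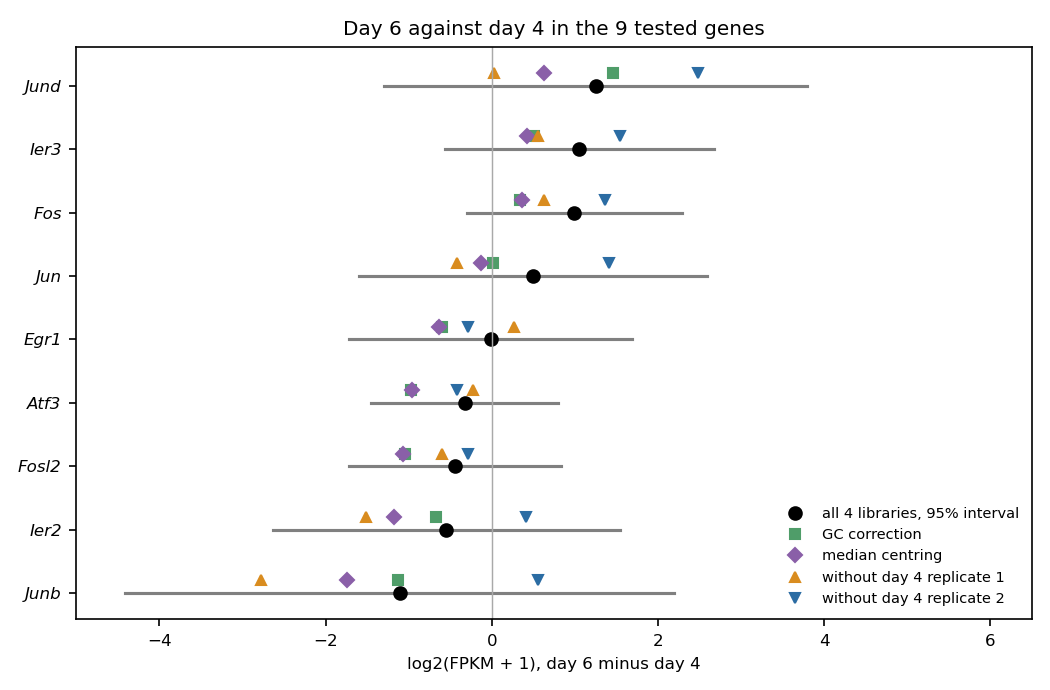
Log2(FPKM + 1) of day 6 minus day 4 for the 9 tested genes, with all 4 libraries (black, limma 95% interval) and, above each, after GC correction, after median centring and without each day 4 library. Every interval includes 0, and Junb, Ier2, Jun and Egr1 have opposite signs without day 4 replicate 1 and without day 4 replicate 2.

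The spread between the day 4 libraries was itself uneven over the group. Of the 9 genes, 4 (Junb, Jund, Ier2 and Jun) were more than 1 log2 unit higher in day 4 replicate 2, where 20.0% of all genes tested were, and 0 were more than 1 unit lower, where 32.8% were. Ier3 followed at 0.98 and Fos at 0.73, whereas Fosl2 differed by 0.31, Atf3 by -0.19 and Egr1 by -0.56. The median over the 9 was 0.98, against -0.26 over all genes. Over the 9 genes this difference ran with GC content (Pearson r = 0.823, Spearman rho = 0.833, n = 9 genes from the same 2 libraries). Over all 11406 tested genes with a GC value r was 0.600. After the GC correction 2 of the 9, Junb at 1.64 and Jun at 1.35, were still more than 1 unit higher in replicate 2. What part GC content has in the differences between the day 4 libraries was not tested beyond this correction.

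**Figure D4:**
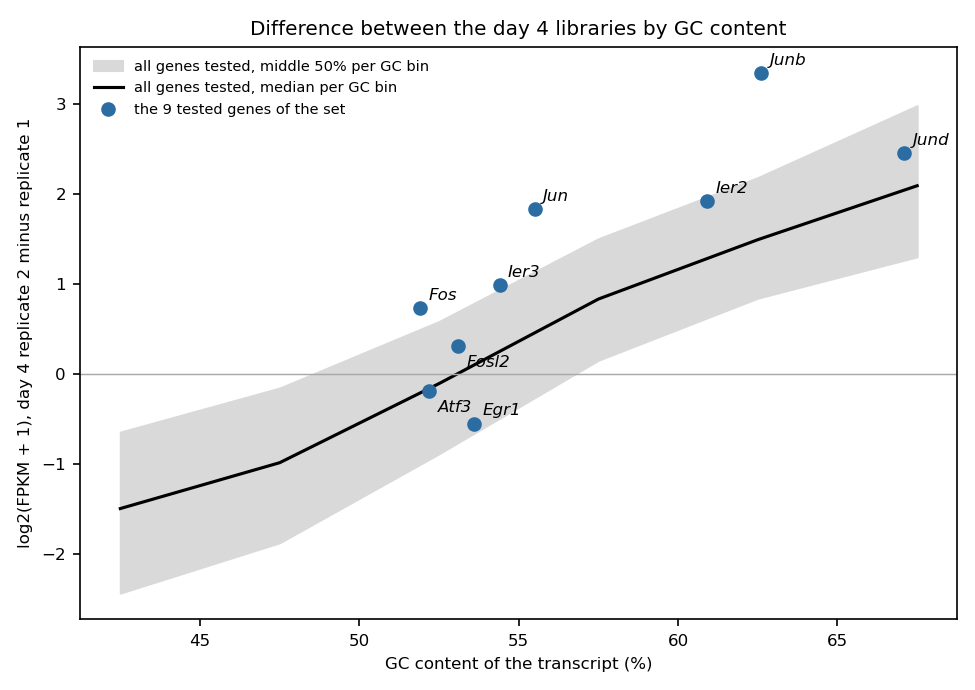
Log2(FPKM + 1) of day 4 replicate 2 minus day 4 replicate 1 against the GC content of the transcript (%). Blue points are the 9 tested genes, the line is the median and the band the interquartile range of all genes tested in bins 5 points wide. The medians run from -1.50 at 40 to 45% GC to 2.09 at 65 to 70%. Junb, at 3.34, Jun, at 1.83, Ier3, at 0.98, and Fos, at 0.73, lie above the band.

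Among other immediate early genes, those lower at day 6 outnumbered those higher. Of 30 listed, 27 were tested, and 11 of them were lower without overlap (11.5% of all genes tested were) and 2 higher (41.5% of all genes were). None passed (limma, adjusted over all genes), 6 had an unadjusted p under 0.05, where 15.4% of all genes had, and the median log2 difference was -0.31. After the GC correction 15 were lower and 2 higher, where 27.3 and 28.1% of all genes were, and the median was -0.94. The 11 were Egr2, Egr3, Ier5, Nr4a1, Dusp2, Dusp6, Myc, Ccn1, Arc, Csrnp1 and Mcl1, and the 2 were Klf4 and Ptgs2. Without day 4 replicate 2, 12 were lower and 10 higher, where 32.0 and 59.9% of all genes were. Without day 4 replicate 1, 17 were lower and 4 higher, where 28.8 and 65.0% were. Egr2 and Egr3, below 1 FPKM in both day 6 libraries, reached the mean of 1 FPKM needed for the test through day 4 alone. Ptgs2, with a mean of 0.687 FPKM at day 4, reached it through day 6 alone. Egr4 and Nr4a3, lower in both day 6 libraries, and Nr4a2, which overlapped, did not reach it.

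Egr3, a zinc finger relative of Egr1, measured 0.759 and 0.991 FPKM at day 6, against 7.03 and 13.5 FPKM at day 4. Its log2 difference was -2.53 with a standard error of 0.49 (limma, adjusted p = 0.265), unlike the -0.01 of Egr1, though the difference between the 2 genes was not tested. Arc, best known as an activity-induced gene of neurons, measured 1.74 and 1.51 FPKM at day 6, against 19.2 and 31.8 FPKM at day 4. Dusp6, a phosphatase that switches off ERK, measured 12.6 and 10.1 FPKM at day 6, against 35.4 and 90.03 FPKM at day 4. On the other side Ptgs2, the inducible cyclooxygenase, measured 12.5 and 7.59 FPKM at day 6, against 1.32 and 0.0496 FPKM at day 4. All day 6 values of these 4 genes lie outside the range of day 4, and none of the 4 passed (limma, adjusted p from 0.265 to 0.286). The 4 are named for having the smallest p of the list, so a separation of the days is no further finding.

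Of 10 further AP-1, ATF and small Maf genes 9 were in the tables and 7 were tested, and of these 4 were lower without overlap (11.5% of all genes were) and 0 higher (41.5% of all genes were), and the median log2 difference was -0.99. None passed, and 2 had an unadjusted p under 0.05, where 15.4% of all genes had. Batf, at 0.269 and 0.463 FPKM at day 6 and 0 in both day 4 libraries, did not reach the mean of 1 FPKM needed for the test. Neither did Batf2, at 0 in all 4 libraries. The counts therefore leave out Batf, which was higher at day 6. Fosl1 (Fra-1), the remaining Fos family gene, measured 0.0650 FPKM and 0 in day 6 replicates 1 and 2, against 1.26 and 7.05 FPKM at day 4. Fosl1 reached that mean through its day 4 values alone. Maff, Mafg and Mafk, small leucine zipper proteins without an activation domain, complete the 4. Maff measured 11.9 and 9.74 FPKM at day 6, against 29.4 and 102 FPKM at day 4. Mafg measured 21.0 and 16.2 FPKM at day 6, against 25.2 and 67.1 FPKM at day 4, and Mafk 11.8 and 10.7 FPKM at day 6, against 17.4 and 31.1 FPKM at day 4. These 4 were lower without overlap after the GC correction too, where 27.3% of all genes were, and Batf3 was higher, where 28.1% were.

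**Figure D5:**
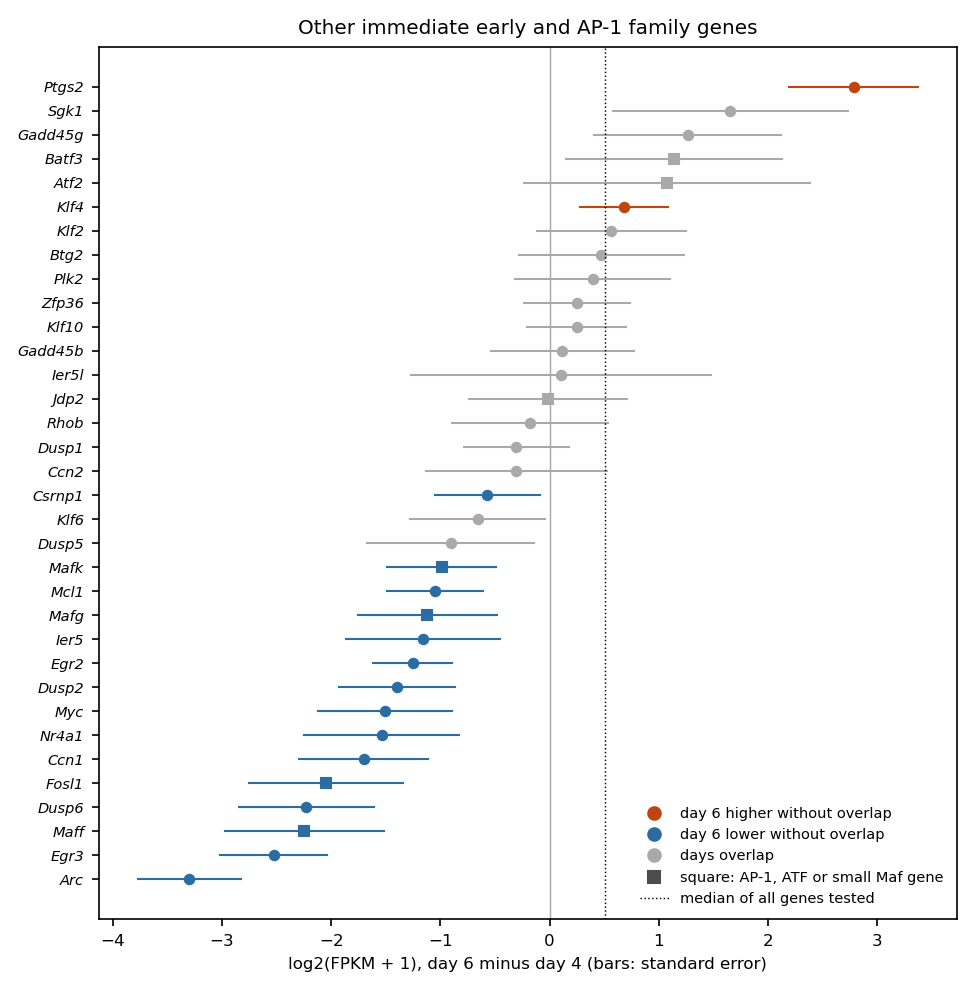
Log2(FPKM + 1) of day 6 minus day 4, with the limma standard error, for the 27 other immediate early genes (circles) and 7 AP-1, ATF and small Maf genes (squares) that were tested. Blue marks genes lower at day 6 without overlap (11 circles and 4 squares), orange those higher (2 circles), and the dotted line the median of all genes tested, 0.51.

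Of 17 tested Ras and MAP kinase genes, 8 were higher without overlap and 2 lower, close to the 41.5 and 11.5% of all genes, with a median of 0.58. Without day 4 replicate 2, 10 were higher and 7 lower, where 59.9 and 32.0% of all genes were. Without day 4 replicate 1, 13 were higher and 4 lower, where 65.0 and 28.8% were. Map2k1 (MEK1), which phosphorylates ERK, measured 31.0 and 34.2 FPKM at day 6, against 10.7 and 12.2 FPKM at day 4. Map2k4, which activates the Jun kinases, measured 18.5 and 19.4 FPKM at day 6, against 9.29 and 4.25 FPKM at day 4. Rps6ka1 (RSK1), a kinase downstream of ERK, measured 53.6 and 57.1 FPKM at day 6, against 11.2 and 43.0 FPKM at day 4. All 3 of these, named for being among those with the smallest p of the list, were higher in both day 6 libraries. None of the 17 passed, and 2 had an unadjusted p under 0.05, where 15.4% of all genes had. GC-corrected, 6 were higher and 2 lower, where 28.1 and 27.3% of all genes were, with a median of 0.26, against 0.02 for all genes.

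Of 9 tested genes for SRF, its partners and CREB with its coactivators, 3 were higher without overlap (41.5% of all genes were) and 3 lower (11.5% were). None passed, and 2 had an unadjusted p under 0.05 (15.4% of all genes). GC-corrected, 2 were higher and 5 lower, where 28.1 and 27.3% of all genes were. Srf itself measured 30.1 and 22.4 FPKM at day 6, against 65.8 and 164 FPKM at day 4 (log2 difference -1.96, limma, adjusted p = 0.298), and stayed lower without overlap after the GC correction, at -1.88. Ep300, a coactivator with acetyltransferase activity, measured 32.5 and 32.4 FPKM at day 6, against 62.0 and 53.1 FPKM at day 4. Elk3, a ternary complex factor, measured 5.98 and 5.48 FPKM at day 6, against 1.10 and 0.0604 FPKM at day 4, and Mrtfb, an actin-regulated SRF coactivator, 7.76 and 7.25 FPKM at day 6, against 3.85 and 3.26 FPKM at day 4. Srf and Ep300 were thus lower, and Elk3 and Mrtfb higher, in both day 6 libraries, and these 4 are named for having the smallest p of the list. Of the Egr corepressors, Nab2 measured 12.4 and 14.3 FPKM at day 6, against 16.6 and 42.6 FPKM at day 4, and Nab1 5.74 and 5.41 FPKM at day 6, against 4.52 and 5.29 FPKM at day 4.

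Of 12 tested genes known as AP-1 targets, 4 (Mmp14, Plau, Timp1 and Fn1) were higher without overlap and 2 (Ccnd1 and Odc1) lower, near the 41.5 and 11.5% of all genes, with a median of 0.60. None passed, and 3 had an unadjusted p under 0.05, where 15.4% of all genes had. GC-corrected, 4 were higher and 4 lower, where 28.1 and 27.3% of all genes were, with a median of 0.01. Fn1 (fibronectin) measured 679 and 628 FPKM at day 6, against 139 and 181 FPKM at day 4. Ccnd1 (cyclin D1) measured 16.0 and 14.5 FPKM at day 6, against 73.5 and 74.0 FPKM at day 4. Timp1, a protease inhibitor, measured 16.7 and 13.2 FPKM at day 6, against 5.08 FPKM and 0 at day 4, and Plau (urokinase) 8.66 and 3.69 FPKM at day 6, against 2.33 FPKM and 0 at day 4.

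Markers of other cell types differed with the day, none past the adjusted threshold (limma), and their part in these results was not tested. Summed over 4 fibroblast genes the level was 116 and 209 FPKM at day 6, against 8.90 and 8.19 FPKM at day 4, with Postn at 0 in both day 4 libraries. Col1a1 alone was at 58.4 and 127 FPKM at day 6, against 6.16 and 5.71 FPKM at day 4. Of the 4, Col1a1, Col3a1 and Postn were higher in both day 6 libraries, and Thy1 overlapped between the days. The embryonic globins Hba-x and Hbb-bh1 summed to 178 and 709 FPKM at day 6 and were listed at 0 at day 4. The endothelial genes Pecam1, Cdh5 and Kdr summed to 9.38 and 21.7 FPKM at day 6, against 4.20 and 0.934 FPKM at day 4. These fibroblast, globin and endothelial sums were higher in both day 6 libraries. Of the visceral endoderm genes Ttr was at 8.13 and 11.04 FPKM at day 6 and listed at 0 at day 4, while Afp was at 0 in all 4 libraries, as was the leukocyte gene Ptprc. The 3 streak genes summed to 16.9 and 16.1 FPKM at day 6, against 239 and 496 FPKM at day 4, and the 4 pluripotency genes to 97.0 and 79.2 FPKM at day 6, against 523 and 488 FPKM at day 4. Of these 4, Pou5f1, Sox2 and Nanog were lower in both day 6 libraries, while Zfp42 (Rex1) was higher, at 21.4 and 24.9 FPKM at day 6, against 20.6 and 6.15 FPKM at day 4. Of 8 heat shock genes, read as a sign of stress in handling, 1 (Dnajb1) was higher without overlap and 1 (Hspe1) lower, where 41.5 and 11.5% of all genes were, with 0 at an unadjusted p under 0.05 (limma). GC-corrected, 0 were higher and 3 (Hspa8, Hspe1 and Hspd1) lower, where 28.1 and 27.3% of all genes were. Their sum was 2845 and 2479 FPKM at day 6, against 3668 and 3686 FPKM at day 4. Hspa1a and Hspa1b are near-identical copies, and how reads were split between them is not known.

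The median profile of the 9 tested genes, each set to a mean of 0 on the log2(FPKM + 1) scale, was 0.10 and -0.07 in day 6 replicates 1 and 2 and -0.86 and 0.37 in day 4 replicates 1 and 2. Among all other tested genes the 5 nearest to it by Euclidean distance over the 4 libraries were Tmem219, Rab14, Cc2d1b, Polrmt and Piezo1, at distances of 0.236 to 0.239. Each was between 2.30 and 2.72 times as high in day 4 replicate 2 as in day 4 replicate 1, with both day 6 libraries between them. With 4 libraries this likeness is a description.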

How the data were processed

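Per the labels' protocols, cells were lysed in TRIzol and mRNA was isolated with Dynabeads for stranded TruSeq libraries. CASAVA, TopHat2 2.0.11 and mm10 are named in the submitters' processing notes. Not given in the sources used here: the quantifier, the annotation and the use of strand. The authors deposited 1 table of 35656 transcript rows per library with FPKM and an FPKM interval, and a coverage signal that was deposited unscaled and not used. The deposited starts count from 0 and were raised by 1. No counts are given, so depth was estimated from interval widths read as 2 standard deviations of a Poisson count either way, counting error only.

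Rows were named from RefSeq (GRCm38.p6) and GENCODE M21 tables (94.2% of rows), and FPKM was summed per symbol. Day 6 was compared with day 4 with limma 3.58.1 in R 4.3.3 on log2(FPKM + 1), for the 11736 genes whose mean reached 1 FPKM, two-sided, with a mean-variance trend and Benjamini-Hochberg adjustment at 0.05. The scale understates changes of low genes. A gene high at 1 day only can reach this mean through that day, so the counts without overlap depend in part on the filter. The GC correction subtracted, per library, a loess fit (span 0.3) on transcript GC, known for 97.2% of tested genes and all 10 genes of the group. The limma fit was tested on simulated log2 values, and the GC correction was not. The genes of the group and all lists were chosen with earlier results of these data known. Named genes are the 10, Evx1, 4 markers, up to 4 tested genes per list with the smallest p and the 5 nearest profiles; other list genes are named where a count is spelled out. The values of 1 list gene are not reported here. Both days have replicates 1 and 2, and the labels do not say that a number marks a shared culture.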

Additional observations from a re-analysis of the deposited data

How the results depend on the processing

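With 2 libraries a day, 0 genes passed in either direction under a pseudocount of 0.1 FPKM, no filter, median centring, upper-quartile scaling, GC correction, no trend or the highest row per gene. With the replicate block 60 genes passed higher and 14 lower, none of them among the 9. The deviations of libraries with the same number correlated at -0.0889, and no label supports a pairing. Leaving out each library gave 0 to 5844 genes higher and 0 to 1990 lower. The counts without a day 4 library rest on the spread of the day 6 pair, and 0 passed with a day 6 library left out (270 and 292 at an unadjusted p under 0.05). Of the 108 alternative values for the 9 genes 6 turned the direction. Jun went from 0.49 to -0.14 under median centring, which lowered the difference of every gene by the same amount. The other 5 came from leaving out a library. Over these, the log2 differences ran from 0.63 to 1.36 for Fos, from -0.76 to -0.12 for Fosl2, from -0.42 to 1.41 for Jun, from -2.78 to 0.56 for Junb, from 0.026 to 2.48 for Jund, from -0.42 to -0.23 for Atf3, from -0.66 to 0.63 for Egr1, from -1.51 to 0.41 for Ier2 and from 0.56 to 1.54 for Ier3. The mean sum of Fos, Fosb and Fosl2 was 23.3 FPKM at day 6 and 19.8 FPKM at day 4 as deposited, but 20.5 FPKM at day 6 and 22.7 FPKM at day 4 under upper-quartile scaling, so the order of the days turns. With Fosl1 in the sum, added after seeing the data, it was 23.4 FPKM at day 6 and 23.96 FPKM at day 4, which turns the order too. The count of the 9 higher without overlap was 2 to 6 over the left-out day 4 libraries and the count lower 1 to 5, an alternative added after seeing the data. The median over all genes was 0.51 as deposited, 0.02 after GC correction, -0.12 after median centring and 0.21 after upper-quartile scaling, and differences shift with it. The estimated depth limits Fosb most.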

Other observations

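Between the 2 day 6 libraries most genes differed by less than 1 log2 unit, with 0.750% more than 1 unit higher and 1.06% more than 1 unit lower in replicate 2. In the GC bins from 40 to 70% the medians over all genes lay between -0.11 and -0.01. Values somewhat lower in replicate 2 were therefore common, and the share of all genes lower in it was not counted. Of the 27 tested other immediate early genes 23 were lower in day 6 replicate 2 and 4 higher, on the log2(FPKM + 1) scale. Without the share over all genes this count cannot be read as particular to these genes. The 4 past 1 log2 unit were all lower: Ccn2 (CTGF, a matrix-associated growth regulator), Plk2, Klf2 and Btg2, at -1.82, -1.11, -1.05 and -1.0. Ccn2 measured 39.9 FPKM in day 6 replicate 1 and 10.6 FPKM in day 6 replicate 2. The 4 higher ones were Dusp2 at 0.87, Egr2 at 0.33, Klf10 at 0.19 and Egr3 at 0.18, the direction of Egr1, at 1.29. Of the group itself Fosl2, Jun, Ier3 and Junb differed by -0.64, -0.64, -0.85 and -0.57 and Fos by 0.22. Jund differed by -0.38, Atf3 by -0.09 and Ier2 by 0.03. Of the 99 list genes tested, 9 differed by more than 1 log2 unit: Ccn2, Plk2, Klf2 and Btg2, Plau at -1.04, and Hba-x, Hbb-bh1, Cdh5 and Col1a1, which were higher in replicate 2 by 2.08, 1.82, 1.46 and 1.11. These values compare 1 library with 1 library, and the genes were chosen after their values were seen.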
